A study of Mus musculus with 2 samples.

Results

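The genes described here encode the nuclear subunits of the mitochondrial respiratory chain and of ATP synthase, measured in the mouse mesoangioblast clones D16 and D351. Members were chosen by a gene symbol rule, with earlier results of these data known. The rule took every probe set whose platform symbol starts with Nduf, Sdh, Uqcr, Atp5 or Cox4 to Cox8. Left out were Cox6a1, Cox6a2, Cox7a1, Cox7a2, Cox8a and Cox8b. This gave 103 of 12422 non-control probe sets. Of these, 93 carried a single symbol and stood for 67 of the 8251 genes on the array, and 10 carried several symbols and named no gene. Where a gene had several probe sets, the brightest over both arrays stood for it, and 62 of the 67 were at or above an intensity floor of 17.4 in at least 1 clone. The same prefixes also took in 4 assembly factors, Ndufaf1, Ndufaf4, Sdhaf1 and Sdhaf2, which help to build complexes I and II without being part of them.

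Mesoangioblasts are vessel-associated mesodermal progenitor cells. Both clones came from C57BL6 embryos: the dorsal aorta of embryonic day 9.5 was cultured as an explant for 5 days, and single cells were then cloned at limiting dilution on primary embryonic fibroblasts whose growth had been stopped with Mitomycin C, in RPMI with 20% fetal calf serum, before expansion on gelatin. No treatment or genotype distinguished D16 from D351, so the comparison asks how far lines derived in the same way differ. Total RNA of each clone was hybridised to 1 Affymetrix U74A array, so each group is 1 line measured once, no test between the clones was possible, and every difference below is a size measured between these arrays. No source used here gives the number of passages or the state of the cultures.

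The respiratory chain passes electrons from NADH (complex I) and succinate (complex II) through ubiquinone to complex III, then through cytochrome c to complex IV, where oxygen is reduced. Complexes I, III and IV pump protons across the inner mitochondrial membrane, and ATP synthase uses the returning protons to make ATP. Apart from complex II, each of these assemblies mixes subunits from nuclear genes with a few from mitochondrial DNA. The array annotation named no mitochondrially encoded gene, so only the nuclear share was measured. Proliferating progenitor cells are known to lean on glycolysis and to build up respiratory capacity as they differentiate.

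Most of these genes lay close together in both clones, with a modest tilt towards D16. Of the 62 measured members, 43 were lower in D351 and 19 higher, that is 69.4% lower against 51.6% of all 6098 genes at or above the floor. The median log2 ratio of D351 over D16 was -0.26 for the members and -0.03 for all genes. Complex III stood lowest, with all 7 of its measured subunits lower in D351 and a median of -0.63. The alpha subunit gene of ATP synthase, Atp5a1, and the iron-sulfur subunit gene of complex II, Sdhb, were 1.90-fold and 1.86-fold higher in D16. In the other direction, the complex I genes Ndufb3, Ndufb2, Ndufc1 and Ndufv3 were between 1.56-fold and 1.88-fold higher in D351.

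At 2-fold or more, 4 members were higher in D16, or 6.45%, against 8.87% of all genes tested. None was at least 2-fold higher in D351, against 10.6% of all genes, and 58 lay within 2-fold. At 1.5-fold or more, 18 members (29.0%) were higher in D16, where 21.0% of all genes passed, and 4 members (6.45%) were higher in D351, where 21.1% passed. Towards D16, the members' share was thus near that of all genes at 2-fold and above it at 1.5-fold. Towards D351 it was below that of all genes at both thresholds, under the median scaling used here. The ratios were also narrower, with an SD of 0.49 among the 58 members measured in both clones against 0.82 over the 5198 genes so measured. The middle 50% of those members ran from -0.66 to 0.04 on the log2 scale, and of the genes from -0.46 to 0.46.

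Most members gave bright signals, so the background was also taken over bright genes. Among 1701 genes with a mean level of at least 200, the median log2 ratio was 0.03 and 48.4% were lower in D351. Of 47 members in that range, 33 (70.2%) were lower, with a median of -0.26. A 1.5-fold excess in D16 was seen for 13 of them (27.7%), against 19.5% of bright genes, and a 1.5-fold excess in D351 for 4 (8.51%), against 22.6%. By level, the 38 members between 400 and 1600 had a median of -0.26 where 681 genes had 0.04, while the 9 members between 100 and 400 had 0.04 where 2168 genes had 0.03. Below 100, 8 members measured in both clones had a median of -0.34 where 2254 genes had -0.06, and from 1600 up 3 members had -0.51 where 95 genes had -0.23. The classes below 100, between 100 and 400 and from 1600 up hold 8, 9 and 3 members, too few to read a pattern by level.

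**Figure D1:**
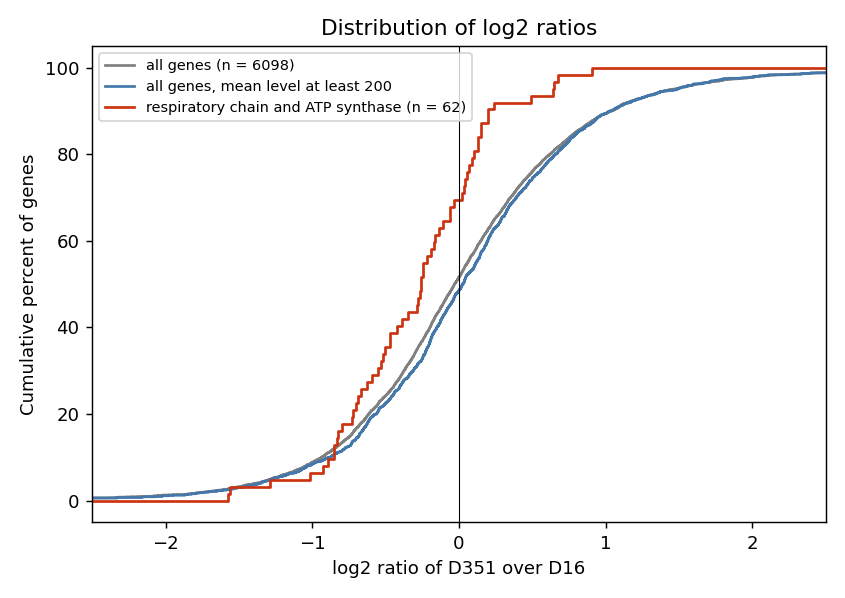
Cumulative percent of genes (vertical axis) against the log2 ratio of D351 over D16 (horizontal axis) for all 6098 genes at or above the floor, for the genes with a mean level of at least 200, and for the 62 members. The curve of the members lies to the left over most of its course, crosses 0 at 69.4% and ends at 0.91, below 2-fold on the D351 side.

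The only error that 1 array per clone allows is the spread between probe sets of the same gene, whose SD in log2 units was 0.52 across 806 genes and 0.31 across the 7 members with several measured probe sets. It leaves out the spread between cultures and hybridisations. The 1.5-fold threshold is itself just above 0.52 in log2 units, so passing it does not set the 18 and 4 members apart from this spread. The SD of the ratios of the members measured in both clones, 0.49, is no larger than 0.52. Array scaling also matters for direction. Scaling on the 9 hybridization controls moved the median of all genes to 0.34 and that of the members to 0.13, so the members' sign turned while their distance to all genes, -0.21, stayed near the -0.23 of the median scaling. All statements that members were lower in D351 are therefore relative to the bulk of genes on these arrays.

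Nuclear respiratory genes are known to be controlled by the factors NRF1, GABP (an ETS factor) and YY1. The promoters of 6 members that were at least 1.5-fold apart, in either direction, are shown. These 6 were picked by hand. Members with larger ratios, such as Ndufaf4, Ndufa10, Atp5pb and Uqcrc2, are not shown. Printed are the 120 bases before the start site, 5′ to 3′ on the gene's strand, from RefSeq (GRCm38.p6). Capitals mark matches on either strand to GCATGCGC (NRF1 core), CCGGAAG (ETS core) or AAGATGGC (YY1 core). The NRF1 core is nearly its own reverse complement, so 1 site can match on both strands, and the ETS and YY1 cores can share the letters AAG.
Sdhb, chr4:140961151-140961270, plus strand: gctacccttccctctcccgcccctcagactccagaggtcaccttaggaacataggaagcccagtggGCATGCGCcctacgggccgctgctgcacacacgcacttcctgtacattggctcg
Atp5k, chr5:108434400-108434519, minus strand: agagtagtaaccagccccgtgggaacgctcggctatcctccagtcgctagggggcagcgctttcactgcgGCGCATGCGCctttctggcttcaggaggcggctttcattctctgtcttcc
Uqcrh, chr4:116075071-116075190, minus strand: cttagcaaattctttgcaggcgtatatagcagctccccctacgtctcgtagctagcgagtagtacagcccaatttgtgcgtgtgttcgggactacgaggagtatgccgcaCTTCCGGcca
Ndufb6, chr4:40279422-40279541, minus strand: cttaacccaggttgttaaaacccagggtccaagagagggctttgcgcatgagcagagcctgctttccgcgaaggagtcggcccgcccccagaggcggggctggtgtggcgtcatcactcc
Ndufb3, chr1:58586277-58586396, plus strand: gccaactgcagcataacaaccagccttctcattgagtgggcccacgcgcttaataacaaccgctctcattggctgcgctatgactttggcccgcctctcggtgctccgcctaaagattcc
Ndufc1, chr3:51408956-51409075, minus strand: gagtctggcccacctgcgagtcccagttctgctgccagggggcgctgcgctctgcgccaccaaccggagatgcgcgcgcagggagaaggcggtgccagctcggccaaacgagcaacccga

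Sdhb, Atp5k, Uqcrh and Ndufb6 were all lower in D351, with log2 ratios of -0.90, -0.85, -0.83 and -0.85. In these windows Sdhb and Atp5k hold the NRF1 core, Uqcrh holds the ETS core and Ndufb6 holds none of the motifs. Ndufb3 and Ndufc1, higher in D351 with log2 ratios of 0.91 and 0.65, hold none here either. Over the whole RefSeq window, 250 bases before to 50 after the start, Ndufb6 has the ETS core farther upstream, Sdhb and Atp5k have the ETS core after the start, and Ndufc1 has the YY1 core after the start.

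A promoter was listed for 50 of the 62 measured members, and 27 of the 50 held at least 1 of the motifs in these 300 bases. The NRF1 core was in 9 of 50 (18.0%), against 6.17% of 4910 measured genes and 3.05% of all 27025 genes with a promoter. The ETS core was in 16 (32.0%), against 20.4% and 9.93%. The YY1 core was in 7 (14.0%), against 5.42% and 3.19%. The members with the NRF1 core had a median log2 ratio of -0.34, and 8 of the 9 were lower in D351. Those with the ETS core had a median of -0.10, with 10 of 16 lower, and those with the YY1 core 0.13, with 3 of 7 lower. The 0.13 is the value of Ndufs4, a bound from 11.5 in D16, below the floor, and 19.0 in D351. Ndufa3, also in the YY1 group, had 0.20 by its brighter probe set and -0.23 by another. The members without each motif had medians of -0.16, -0.24 and -0.26. A match is a stretch of letters and was not tested as a binding site.

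Complex I, NADH dehydrogenase, is the largest assembly of the chain, with a matrix arm that oxidises NADH and a membrane arm that pumps protons. Of its 29 subunit genes on the array, 27 were at or above the floor: 17 were lower and 10 higher in D351, and the median log2 ratio was -0.25. The assembly spanned the widest range of the measured complexes, from -1.56 to 0.91, and held all 4 members that were at least 1.5-fold higher in D351, along with 7 that were at least 1.5-fold higher in D16.

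In the matrix arm, 7 of 11 measured genes were lower in D351, with a median of -0.19. Ndufs1, the largest core subunit and a carrier of iron-sulfur clusters, measured 375 in D16 and 216 in D351, or 1.73-fold higher in D16. Ndufv1, the core subunit that binds NADH and FMN, measured 1535 and 1020 (1.51-fold higher in D16). Its partner in the flavoprotein, Ndufv2, lay close to equal at 555 and 595, and a second probe set gave nearly the same log2 ratio (0.08 beside 0.10). The accessory flavoprotein subunit gene Ndufv3 went the other way, at 159 in D16 and 248 in D351 (1.56-fold higher in D351). So within the flavoprotein, where NADH is oxidised, the 3 genes differed in direction. The other matrix arm genes measured in both clones lay between -0.28 and 0.04, among them Ndufs3, a core subunit, and Ndufa7, an accessory subunit, at 1667 and 1489. Ndufs4, another accessory subunit, was below the floor in D16 (11.5) and near it in D351 (19.0), and Ndufa12 was below it in both (5.7 and 12.2).

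In the membrane arm, 10 of 16 measured genes were lower in D351, with a median of -0.32. Lower were the accessory subunit genes Ndufb6 (1164 in D16 and 646 in D351), Ndufb8 (520 and 316) and the X-linked Ndufb11 (1016 and 632), between 1.61-fold and 1.80-fold. Ndufab1, the mitochondrial acyl carrier protein, which also serves lipoic acid synthesis, measured 699 and 421, 1.66-fold higher in D16. Ndufb10 and Ndufb5 followed the same direction at 1.47-fold and 1.43-fold. Ndufa10, an accessory subunit, had the largest measured ratio of any subunit, 2.95-fold, but its signal was low, 62.4 in D16 and 21.2, near the floor, in D351.

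Against these stood accessory subunits of the same arm that were higher in D351. Ndufb3 measured 220 in D16 and 413 in D351, 1.88-fold higher in D351 and the highest ratio of all members. Ndufc1 measured 551 in D351, 1.57-fold above D16. Ndufb2 measured 727 and 1162 (1.60-fold) by 1 probe set and 879 and 971 (a log2 ratio of 0.14) by another, so its size depends on the probe set. Ndufb7 and Ndufa13, the second also known as the cell death regulator GRIM-19, lay at 913 and 924 and at 402 and 412, within a few percent of each other. Ndufa3 had a log2 ratio of 0.20 by its brighter probe set and -0.23 by a dim one. Ndufc2 was at 20.2 in D16 and below the floor in D351 (5.5), and Ndufa1 was below the floor in both (13.5 and 14.9).

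The 4 core genes of complex I on the array, Ndufs1, Ndufs3, Ndufv1 and Ndufv2, had a median of -0.42, and the 23 measured accessory genes had -0.22, with 14 of them lower, a difference that was not tested. Among assembly factors, Ndufaf4 measured 51.9 in D16 and 11.2, below the floor, in D351, a difference of at least 2.98-fold. Ndufaf1, which acts in the assembly of the membrane arm, measured 62.5 and 87.9, a log2 ratio of 0.49.

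**Figure D2:**
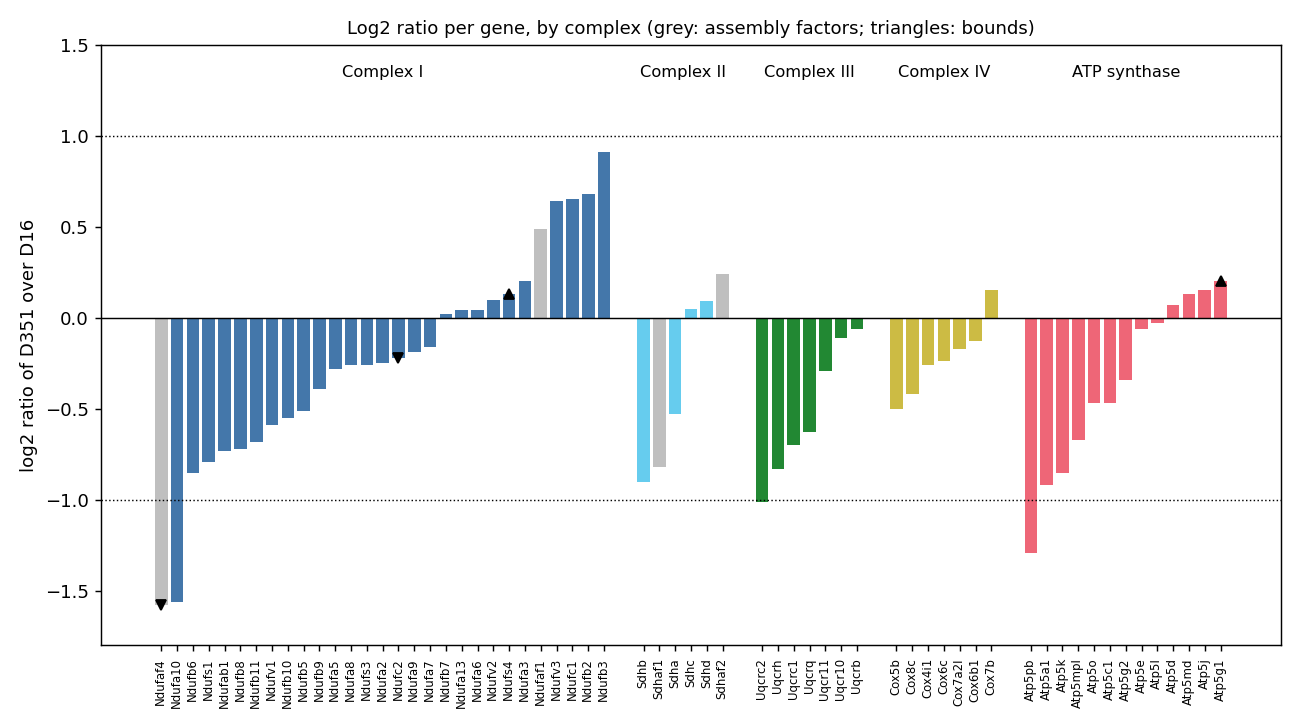
Log2 ratio of D351 over D16 (vertical axis) for each of the 62 measured members, sorted within each complex, from 1 array per clone. Grey bars are assembly factors, triangles mark ratios that are bounds because 1 clone was below the floor, and dotted lines mark 2-fold. All 7 bars of complex III point down, while complex I reaches from -1.56 for its subunits to 0.91.

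Complex II, succinate dehydrogenase, joins the tricarboxylic acid cycle to the chain and is encoded wholly in the nucleus. Its 4 subunits were read by 1 probe set each, and a split by function was not tested. The catalytic pair was lower in D351: Sdhb, the iron-sulfur subunit, measured 635 in D16 and 342 in D351, and Sdha, the flavoprotein that oxidises succinate, measured 121 and 83.6 (1.44-fold higher in D16). The membrane anchors Sdhc (509 and 528) and Sdhd (380 and 404) lay nearly level, with log2 ratios of 0.05 and 0.09. Sdhb was read by a probe set of a kind that can match other transcripts. Sdha was read at a low level, and its log2 ratio of -0.53 is about the size of the SD between probe sets, 0.52. Of the assembly factors, Sdhaf1, which protects the iron-sulfur subunit, measured 209 and 118 (1.77-fold higher in D16), and Sdhaf2, which attaches FAD to the flavoprotein, 70.9 and 83.6 (1.18-fold higher in D351).

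Complex III, the cytochrome bc1 complex, passes electrons from ubiquinol to cytochrome c. All 7 measured genes were lower in D351, with log2 ratios from -1.01 to -0.06, and 4 of them at least 1.5-fold. Uqcrc2, a core protein of the matrix side, measured 640 in D16 and 317 in D351, 2.02-fold higher in D16 and the single bright member past 2-fold, by a probe set that can match other transcripts. Uqcrc1, the other core protein, measured 928 and 570 (1.63-fold). Uqcrh, the hinge protein that binds cytochrome c1, measured 1377 and 775 (1.78-fold), and Uqcrq, a small membrane subunit, measured 2145 and 1389 (1.54-fold). The small subunits Uqcr11, Uqcr10 and Uqcrb were nearer to equal, at 1.22-fold, 1.08-fold and 1.04-fold higher in D16. The cytochrome c1 gene Cyc1, which belongs to the complex but not to the symbol rule, measured 2740 and 1455 (1.88-fold higher in D16), although another probe set had a log2 ratio of -0.03. The direction held for all 7 in the median, deposited, quantile and loess scalings. On the hybridization controls 4 of 7 were lower in D351, with a median of -0.23, and all 7 still lay below the median of all genes.

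Complex IV, cytochrome c oxidase, hands the electrons to oxygen, and its nuclear subunits surround a catalytic core made in the mitochondria. Among the members, and by the probe sets that stand for them, its genes covered the narrowest range of log2 ratios. Of 9 on the array, 7 were measured, 6 were lower in D351, and none was 1.5-fold apart, with ratios from -0.50 to 0.15 and a median of -0.24. Cox5b, a zinc-binding subunit, had the largest difference, 1125 in D16 and 794 in D351 (1.42-fold). Cox6c measured 1864 and 1576, and Cox7a2l, a supercomplex factor also known as SCAF1, measured 612 and 545. Cox7b, X-linked, was the member that was higher in D351, at 652 and 723. Cox8c, a form known from testis, gave 109 and 81.5 by 1 probe set and was below the floor in both clones by another (1.0 and 1.6).

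Several complex IV genes gave dim signals although the complex is present in nearly every cell. Cox4i1, the common form of its largest nuclear subunit, measured 92.6 and 77.2 by the brighter of its probe sets and 36.5 and 22.4 by the other, with log2 ratios of -0.26 and -0.70. Cox6b1 measured 53.8 and 49.0 by its only probe set, a suffixed one, and Cox6b2, a testis form, was below the floor in both clones by each of its probe sets. Cox5a was also below the floor, at 8.8 and 6.9. Whether these probe sets capture their transcripts was not tested, so no level is read from them. The ratios of Cox4i1 and Cox6b1 are still part of the counts and medians given for the complex and for all members. A pair of probe sets of this complex with several symbols was bright, at 3737 and 2857 and at 2865 and 2423, with log2 ratios of -0.39 and -0.24. Among the 6 cytochrome c oxidase genes outside the rule, the ubiquitous forms Cox6a1 (1692 and 1847) and Cox7a2 (993 and 911) were also nearly level, with log2 ratios of 0.13 and -0.12. The muscle form Cox6a2 was 17.3-fold higher in D16 with a D351 level of 23.5, near the floor.

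ATP synthase joins a catalytic F1 head to a proton-driven ring in the membrane, held together by a peripheral stalk. Of 13 measured genes of 14, 9 were lower in D351 and 4 higher, with a median of -0.34, and 4 were at least 1.5-fold higher in D16. In the head, Atp5a1 (alpha) measured 2047 in D16 and 1079 in D351. Atp5c1 (gamma, the rotating shaft) measured 1320 and 952, with log2 ratios of -0.47 and -0.48 by separate probe sets. Atp5e (epsilon) lay level at 455 and 436. For Atp5d (delta) the probe sets disagreed: the brightest by mean level gave 190 and 200, while 2 others gave 216 and 122 and 171 and 124, with log2 ratios from -0.83 to 0.07.

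In the peripheral stalk, which keeps the head from turning, Atp5pb (subunit b) measured 53.8 and 22.0, 2.45-fold higher in D16 but close to the floor in D351. Atp5o, which makes the enzyme sensitive to oligomycin, measured 624 and 451 (1.38-fold higher in D16), and Atp5j, coupling factor F6, 435 and 483 (1.11-fold higher in D351). In the membrane part, Atp5mpl, a small proteolipid, measured 1712 and 1078 (1.59-fold higher in D16), and Atp5k, subunit e, which supports dimers of the enzyme, measured 76.5 and 42.4 (1.80-fold). Atp5l (subunit g) at 1515 and 1480 and Atp5md at 1507 and 1650 were nearly equal, and Atp5j2 (subunit f) was below the floor in both. The proton-carrying c ring is made from several genes that encode the same mature protein. Of these, Atp5g2 measured 287 and 227 (1.27-fold higher in D16), and Atp5g1 was below the floor in D16 (14.3) and near it in D351 (19.9).

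**Figure D3:**
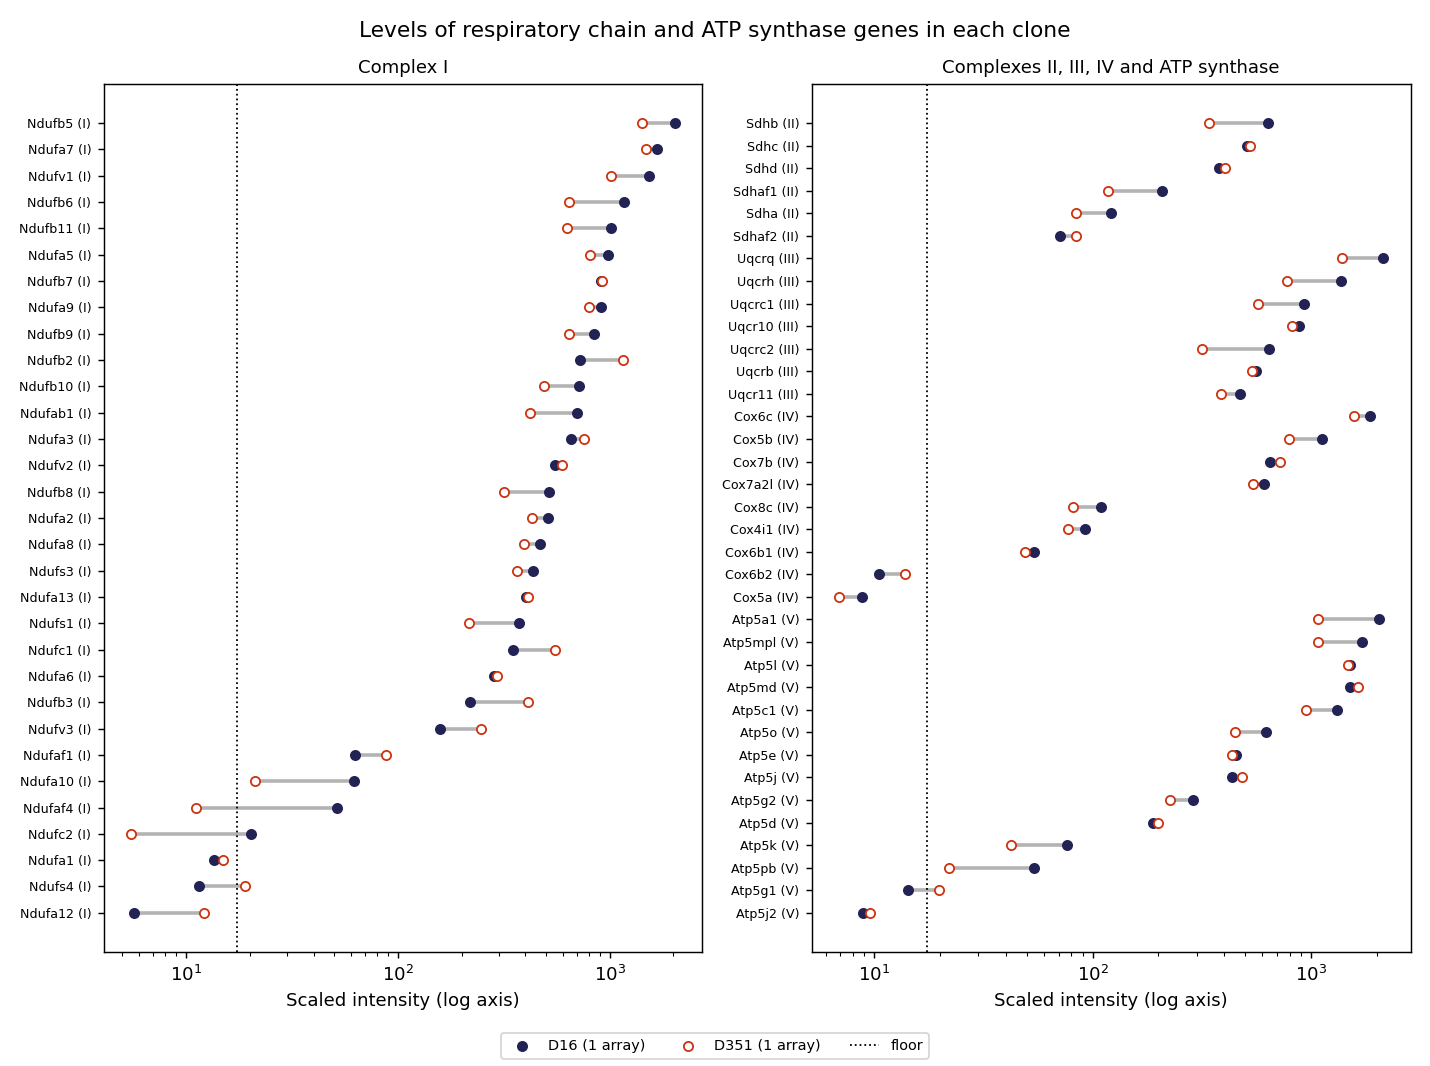
Scaled intensity (horizontal log axis) of the 67 members in D16 (filled points) and D351 (open points), 1 array each, with complex I and its assembly factors on the left and the other complexes on the right. The dotted line is the floor of 17.4. Open points lie to the left of filled ones for most genes, and the 5 genes below the line in both clones are Ndufa12, Ndufa1, Cox5a, Cox6b2 and Atp5j2. Intensities of different probe sets cannot be compared with one another.

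The 10 probe sets with several symbols were kept apart. Of the 9 at or above the floor, 7 were lower in D351, with a median of -0.34, against -0.26 for the named members. A complex I probe set among them measured 966 in D16 and 468 in D351 and was the one past 2-fold. The 62 measured members lie on 19 chromosomes, and the measured X-linked ones differed in direction, with log2 ratios of -0.68 for Ndufb11 and 0.15 for Cox7b.

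The scaling decides the sign of every complex but complex III. Under the median, deposited, quantile and loess scalings, all 5 complexes had negative medians. On the hybridization controls, complexes I, II and IV and ATP synthase had medians of 0.14, 0.16, 0.15 and 0.05, and complex III had -0.23. Relative to the median of all genes, these scalings gave complex III between -0.60 and -0.50 and the others between -0.38 and -0.19. With the hybridization controls, Ndufb3, Ndufb2, Ndufc1 and Ndufv3 passed 2-fold in D351, from 2.05-fold to 2.47-fold, while Uqcrc2 and Atp5pb no longer passed in D16. This scaling moved the median of all genes to 0.34. The share of all genes past 2-fold was not taken under it, so these passes have no background to be read against.

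**Figure D4:**
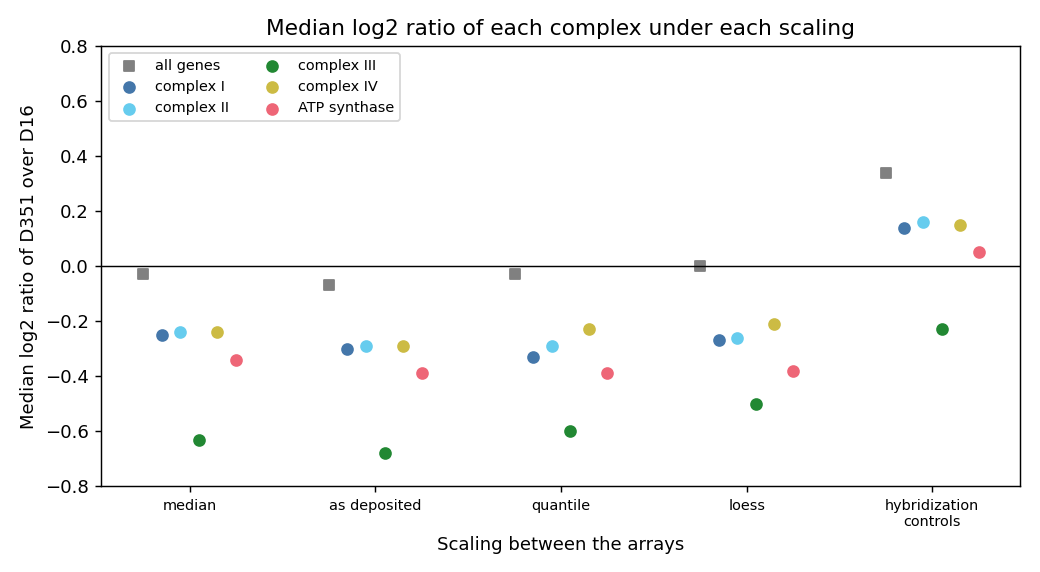
Median log2 ratio of D351 over D16 (vertical axis) of each complex and of all genes (square) under 5 scalings of the arrays. Complex III is lowest in each, the order of the others changes, and the last scaling lifts all medians, to 0.34 for all genes.

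Other mitochondrial genes were taken from lists set by function. Their counts stand against 51.6% of all genes lower in D351, 8.87% at least 2-fold higher in D16 and 10.6% at least 2-fold higher in D351. Of 13 measured electron carrier and quinone synthesis genes, 11 were lower in D351, with a median of -0.25, and 2 at least 2-fold: Coq5 (79.7 in D16 and 25.3 in D351) and Coq7 (118 and 38.4), enzymes of ubiquinone synthesis. Cytochrome c itself, Cycs, measured 91.8 and 47.0 (1.95-fold higher in D16). Of 16 tricarboxylic acid cycle and pyruvate genes, 12 were lower, with a median of -0.30 and the isocitrate dehydrogenase gene Idh2 2.10-fold higher in D16 (477 and 228). Protein import genes were lower in 20 of 25 cases, with a median of -0.33 and 5 at least 2-fold higher in D16. Among them were the mitochondrial Hsp70 gene Hspa9 (2409 and 749), Dnajc15 (142 and 28.1), a co-chaperone of the import motor, the sulfhydryl oxidase Gfer (327 and 110), and the outer membrane pore gene Tomm40 (118 and 56.4).

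Of the 18 measured assembly factors outside the symbol rule, 10 were lower and 8 higher, with a median of -0.28. This list held large differences in both directions. Past 2-fold towards D16 were Fmc1, a factor for ATP synthase assembly (802 and 226, 3.55-fold, with a log2 ratio of -1.72 by another probe set), Lrpprc, which stabilises mitochondrial messenger RNAs (379 and 116, 3.26-fold), and Cmc2 (249 and 99.3, with another probe set at -0.29). Higher in D351 were Coa3 (154 and 436, 2.83-fold) and Surf1 (70.5 and 177, 2.51-fold), both factors of complex IV assembly.

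Of 16 measured biogenesis regulators, 12 were lower in D351, with a median of -0.14, against -0.03 for all genes. Tfb2m, a mitochondrial transcription factor, measured 38.5 and 105 (2.74-fold higher in D351), and Myc 160 and 74.1 (2.16-fold higher in D16). Ppargc1a and Tfam were below the floor in both clones. Nucleotide and phosphate exchange genes had a median of -0.09, with 5 of 8 lower, and none of them was 2-fold apart. The ADP/ATP carrier Slc25a5 measured 306 and 194 (a log2 ratio of -0.34 by another probe set), and the outer membrane channel Vdac3 429 and 293. Genes of mitochondrial dynamics had a median of 0.13, with 8 of 11 higher in D351 and none 2-fold apart. Afg3l1 and Lonp1, mitochondrial proteases, were 1.79-fold and 1.77-fold higher in D16. No test sets these lists apart from one another or from the members.

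Some markers of the cells and of RNA quality differed between the arrays, and others lay close. In the feeder fibroblast list all 10 genes were measured and 8 were higher in D351, with summed levels of 8952 in D16 and 15452 in D351, and no gene of that list was below the floor. S100a4 of that list went the other way, at 1835 in D16 and 414 in D351. Mesodermal cells also express many of these matrix genes. Of the progenitor list, 8 of 10 were measured, 4 lower and 4 higher in D351, and the levels of all 10 summed to 4375 and 4468. Cd34 was at 475 in D16 and below the floor in D351, while Pdgfrb rose from 54.4 in D16 to 197 in D351. Kit and Kdr were below the floor in both. Few endothelial genes were detected (2 of 8 measured, with levels of all 8 summing to 74.5 and 107), with Cdh5, Tek, Tie1, Vwf, Emcn and Icam2 below the floor in both clones. Of 17 striated muscle genes, 10 were measured, of which 7 were lower in D351, with a median log2 ratio of -0.31. Over all 17 the levels summed to 457 and 626, of which Actc1 made up 180 and 408, and Ckm, Mb and Acta1 were below the floor. Of 7 blood genes, 5 were measured, the levels of all 7 summed to 141 and 123, and Ptprc was below the floor. The ratio of 3′ to 5′ signal was 1.81 in D16 and 1.37 in D351 for Actb and 1.56 and 1.44 for Gapdh. The part of feeder cells or RNA quality in the differences above was not tested, and in RNA from bulk cultures, fewer cells of a type and less RNA per cell cannot be told apart.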

How the data were processed

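The authors deposited 1 linear intensity per probe set and array. Software, background method and scaling: not given in the sources used here. The 2% trimmed mean was 100.1 in both arrays.

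Probe sets were named through the platform annotation, made for array version 2, whereas U74A is what the labels read. A difference between versions could change which gene a probe set reads, including those below the floor. Symbols were updated by Entrez number to RefSeq (GRCm38.p6). For the 67 members none changed. Of 12422 non-control probe sets, 10833 had 1 symbol, 396 several and 1193 none. Scaling equalised the arrays' medians, taken over those non-control probe sets that both arrays placed above the floor (factors of 0.983 and 1.02). The floor was the 40th percentile, 17.4. Ratios (log2, D351 over D16) were taken after raising lower values to it, so they are bounds where 1 clone lay below it and were not given where both did. Members and lists were chosen with earlier results of these data known.

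Genes named were all members at least 1.5-fold apart, those with the largest ratios or brightest probe sets in each complex, those with several probe sets, isoforms, those below the floor, and in each other list the genes at least 2-fold apart (at most the 4 with the largest ratios) or, where there were none, the 2 with the largest ratios. Ndufa13, Ndufc2, Ndufs3, Ndufs4, Sdhd, Uqcr10, Uqcr11, Uqcrb, Atp5e, Atp5j, Atp5o, Cyc1, Cycs, Surf1, Cox6a1, Cox7a2, Ppargc1a and Tfam fall outside this rule and were added after their values were seen. Probe sets with the suffixes f, s, r, g or i can match other transcripts or were built less strictly, and 13 members have no other kind. Single arrays allow no test between clones. The functions were tested on simulated arrays. Alternatives covered scaling, floor, pseudocount of 16, probe set rule, threshold and statistic. Python 3.11.15, numpy 2.4.6, pandas 2.3.3, scipy 1.17.1, statsmodels 0.14.6 and matplotlib 3.10.9 were used.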

Additional observations from a re-analysis of the deposited data

How the results depend on the processing

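Precision is limited by having 1 array per clone. No paired analysis was possible because neither clone has replicate arrays, and none could be left out. The count of members at least 2-fold higher in D16 was 4. It was 2 with scaling on the hybridization controls and 2 with a pseudocount of 16 in place of the floor. It was 1 with the floor at the 60th percentile and 1 over genes with both levels at or above 100, and 18 at 1.5-fold. The count at least 2-fold higher in D351 was 0, and became 4 with scaling on the hybridization controls and 4 at 1.5-fold. Shares of all genes were taken only in the main setting. At 2-fold they were 8.87% higher in D16 and 10.6% higher in D351, and at 1.5-fold 21.0% and 21.1%. The counts under the other settings therefore have no background beside them. The median of the members stayed between -0.34 and -0.25 in every setting but the hybridization control scaling, where it was 0.13. On the hybridization controls the medians of complexes I, II and IV and of ATP synthase turned positive, and that of complex III did not. Complex II had 0.05 without suffixed probe sets and over genes with both levels at or above 100. Of 394 values of 45 named members under the alternative settings, 389 stayed within 0.52 of the main value, the SD between probe sets of a gene. Another 5 moved by more, and 0 changed sign past 2-fold. Smaller changes of sign were not counted, such as Cox4i1 from -0.26 to 0.13 on the hybridization controls. That scaling shifted the ratios by less than 0.52, and genes with 1 probe set cannot move under the probe set rules, so the count says little about these settings. The moved ones were Ndufaf4 (-2.23 with the floor at the 25th percentile, -0.79 with the mean of probe sets), Atp5pb (-0.04) and Ndufa10 (-0.26) with the floor at the 60th percentile, and Atp5d (-0.60 without suffixed probe sets). The minimum level of 100 and the count with probe sets of several symbols were chosen after seeing the data.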
